A study of Notamacropus eugenii with 7 samples.

Results

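The let-7 family of microRNAs (miRNAs) was followed in milk and blood serum of lactating tammar wallabies (Notamacropus eugenii) through 5 of its members, let-7a, let-7b, let-7d, let-7f and let-7i. The members were taken by name from a table of 346 miRNAs, of which 102 were listed in at least 1 library. Earlier results of these data were known by then, and the study names all 5 among the abundant miRNAs of milk. Counts of members set beside all miRNAs are therefore not those of a blind choice. Each of the 5 was listed in all 7 libraries. The table names 11 rows of the family when miR-98 is counted. A sixth row with values, let-7g, lay outside the choice and is given beside the members, and 5 rows, let-7c, let-7e, let-7f-1, let-7f-2 and miR-98, held no value in any library.

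Milk was labelled as collected at days 35 and 75 of lactation (phase 2A, when the young stays attached to the teat), days 120 and 175 (phase 2B, when it stays in the pouch but releases the teat) and day 250 (phase 3, when it starts to feed on plants). Blood serum came from lactating females at days 120 and 175, which the study describes as females that also gave milk. All females were anaesthetised and were given oxytocin before milking. Neither their age nor a strain is given in the sources used here. Milk of several females was pooled at each day, fat and cells were spun out, and small RNA was sequenced from the skim milk and the serum. RNA of milk and of serum was extracted with different kits, and blood was taken from fewer females than milk. Differences between the fluids therefore cannot be told apart from differences between the kits. The comparisons ask how the family changed as lactation went on, and how milk differed from the blood of the mothers.

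Each value is the percent of all annotated miRNA reads of its library, rounded to 3 decimals. There was 1 library for each fluid and day, so a change between days has no replicate error and no test. The percentages do not carry the depth, no counting interval was computed, and the stated precision of a share is the rounding step of 0.0005 percentage points either way. Let-7 members are closely related in sequence, and the counting may have assigned a read to the wrong member or to several.

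The let-7 miRNAs share the same seed, the stretch near the 5′ end through which a miRNA pairs with its target mRNAs, and differ in a few bases elsewhere. They are known for building up as cells leave the embryonic state, for holding down growth genes such as the RAS and HMGA2 transcripts, and for their mutual opposition with the RNA-binding protein LIN28, which blocks the processing of let-7 precursors. They are encoded in several places of mammalian genomes. Copies of let-7a, let-7f and let-7d lie together in 1 transcript, let-7b lies beside another copy of let-7a, and let-7i stands alone.

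The listed miRNAs summed to between 95.8% and 99.6% of the reads of a library. MiR-191 took between 9.66% and 43.8% of the milk libraries, and miR-10b took 69.2% of the day 120 and 55.4% of the day 175 serum library, so that the shares of all other miRNAs, let-7 included, depend on these miRNAs. The fluids were checked against marker miRNAs. Epithelial markers (miR-141, miR-429, miR-200b and miR-200c, while the row named miR-200a held no value) summed to between 0.742% and 6.50% in milk and to at most 0.024% in serum. The red cell markers miR-451 and miR-144 summed to between 0.042% and 0.055% in serum. In milk they were not listed on day 35 and summed to at most 0.009% at days 75, 120 and 250, but to 0.047% on day 175 (miR-486 was not listed). White cell markers (miR-223, miR-150 and miR-142) summed to at most 0.008% in milk and to 0.041% and 0.120% in serum. The endothelial and platelet marker miR-126 reached 0.007% in milk, against 0.034% and 0.050% in serum. The liver marker miR-122 overlapped between the fluids, with 0.040% in milk of day 35, 0.001% to 0.008% in the other milk libraries, and 0.096% and 0.009% in serum. The part of these cells in the let-7 values was not tested.

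The 5 members together took 13.5% of milk miRNA reads on day 35, 9.85% on day 75, 8.97% on day 120, 12.2% on day 175 and 4.18% on day 250. In serum they took 1.88% on day 120 and 0.757% on day 175. The family thus held its highest share of milk at the first day and its lowest at the last, and each milk library lay above both serum libraries. Once miR-10b and miR-191 were both removed from the total, the day 250 milk no longer lay above both serum libraries. When values were taken as percent of all analysed reads of a library, the highest milk value fell on day 75 and the lowest on day 120. All analysed reads also hold other small RNA. The study ascribes variation among its milk samples to contaminating tRNA fragments and other experimental factors, and scaled to miRNA reads for that reason. Adding let-7g raised the milk sums by at most 0.215 percentage points, to 4.40% on day 250.

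**Figure D1:**
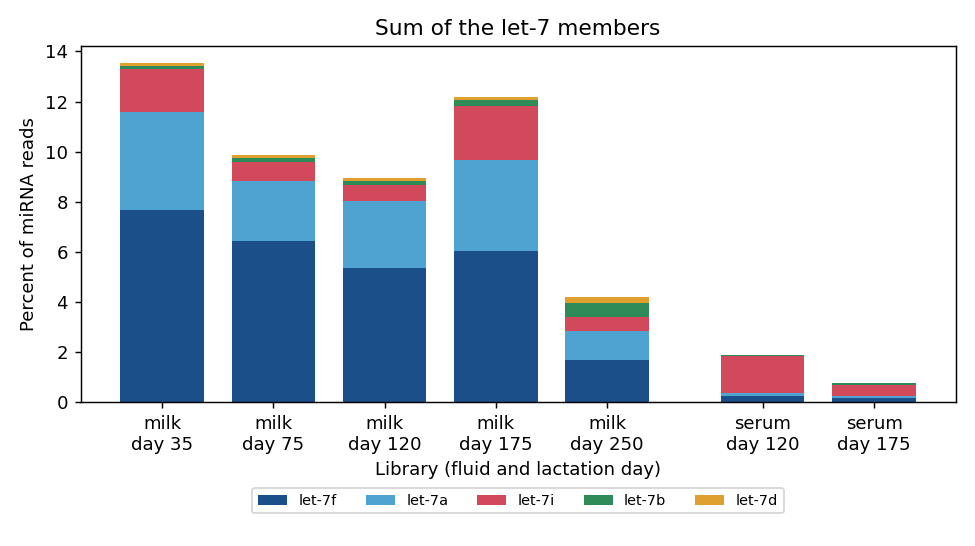
Stacked bars of the percent of miRNA reads taken by each of 5 let-7 members (vertical axis, percent of annotated miRNA reads) in 5 milk and 2 serum libraries, each bar being 1 library. The milk sums lie between 4.18% and 13.5%, and the serum sums are 1.88% and 0.757%.

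Let-7f was the most abundant member in every milk library. Its share was 7.69% on day 35, 6.45% on day 75, 5.37% on day 120, 6.04% on day 175 and 1.67% on day 250. In the deposited percentages the first 4 values lie close together, and the last is 3.61-fold below that of day 175. Under other scalings the first 3 steps ranged from -1.54 to 1.02 on the log2 scale, and the last step, -1.85 as deposited, was -0.77 on the centred log ratio. In rank among all miRNAs it went from 3 on day 35 through 5 on the next 3 days to 9 on day 250.

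Let-7a had the second highest share of the 5 in every milk library. It took 3.89%, 2.39%, 2.64%, 3.65% and 1.19% in order of day, and followed let-7f in its low value on day 250. Its share there was 3.06-fold below that of day 175 (log2 change -1.62, and -0.54 on the centred log ratio), and its rank lay between 6 and 10 throughout.

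Let-7i changed by a larger fold than let-7a and let-7f in some steps before day 250. As deposited, these were the steps from day 35 to day 75 and from day 120 to day 175. Let-7i took 1.72% of milk miRNA reads on day 35, 0.757% on day 75, 0.670% on day 120, 2.12% on day 175 and 0.525% on day 250. In these percentages days 35 and 175 were thus high and the other 3 days low, but as percent of all analysed reads day 35 lay close to day 75 (log2 change -0.22, against -1.18 as deposited). The step from day 120 to day 175 was 3.16-fold upward, and that from day 175 to day 250 was 4.03-fold downward. Both directions, but not the sizes, held under each of 4 other scalings (reads of miR-191, or of miR-10b as well, removed from the total, the centred log ratio, and percent of all analysed reads). The log2 changes of 1.66 and -2.01 were 0.78 and -0.93 on the centred log ratio, and with miR-191 removed the first was 0.97, so that it no longer passed 2-fold.

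Let-7b moved the other way. It took 0.113% on day 35, 0.143% on day 75, 0.163% on day 120, 0.260% on day 175 and 0.591% on day 250, so each step was upward, and its rank rose from 27 to 13 between the first and the last day. Between those days it was 5.23-fold higher, and the rounding leaves this ratio between 5.20 and 5.26. The log2 increase of 2.39 stayed between 1.83 and 3.66 under the 4 other scalings. The step from day 120 to day 175 turned downward when miR-191 was removed, alone or with miR-10b, and on the centred log ratio. That from day 75 to day 120 turned downward as percent of all analysed reads and on the centred log ratio.

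In the deposited percentages let-7d was nearly level until the last milk library. It took 0.133% on day 35, 0.117% on day 75, 0.121% on day 120, 0.119% on day 175 and 0.206% on day 250. The first 4 shares lay within 0.016 percentage points of each other, and that of day 250 was 1.73-fold above the share of day 175. The level course did not hold under other scalings, where the first 3 steps ranged from -1.23 to 0.83 on the log2 scale, whereas the last step stayed upward. Let-7g, outside the 5, took 0.107%, 0.179%, 0.074%, 0.208% and 0.215% in order of day, and did not show the fall of let-7f, let-7a and let-7i on day 250 either.

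**Figure D2:**
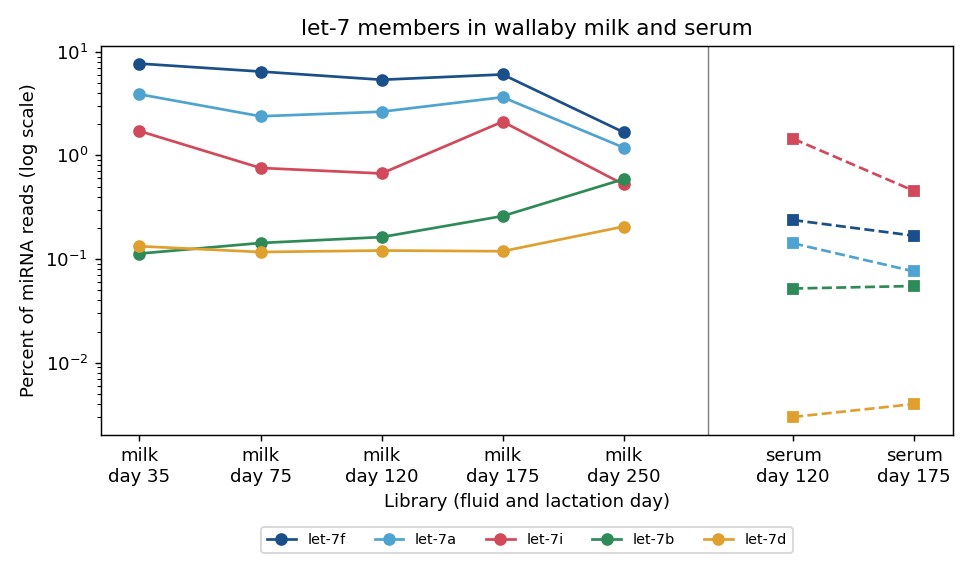
Percent of annotated miRNA reads (log scale) of 5 let-7 members in 5 milk libraries (circles, by lactation day) and 2 serum libraries (squares), each point being 1 library. Let-7f and let-7a lead in milk up to 7.69% and 3.89%, let-7b climbs from 0.113% to 0.591%, and let-7i leads in serum with 1.45% and 0.454%.

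Change by day was set beside all miRNAs with at least 0.005% in either library of a step, with 0.001 added to each percentage, and a miRNA was counted when it differed by over 2-fold. From day 35 to day 75, let-7i alone of the 5 was over 2-fold lower, against 22.2% of 54 miRNAs, and 0 of the 5 were over 2-fold higher, against 35.2%. From day 75 to day 120, 0 of the 5 passed in either direction, where 27.3% of 55 miRNAs did upward and 27.3% downward. These counts are for the deposited percentages, and the other scalings shift all miRNAs of a library alike. The shares past 2-fold over all miRNAs were not computed under other scalings, so members are not counted there. As percent of all analysed reads, the members' log2 changes from day 75 to day 120 ranged from -1.54 for let-7f to -1.09 for let-7b. From day 35 to day 75 they were 1.30 for let-7b and only -0.22 for let-7i. On the centred log ratio that of let-7i from day 35 to day 75 was -0.90.

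From day 120 to day 175, let-7i alone was over 2-fold higher, against 50.8% of 59 miRNAs, whose median log2 change was 1.22. The median of the 5 members was 0.47, below that of all miRNAs, and none was over 2-fold lower, against 10.2%. As percent of all analysed reads the members' log2 changes ranged from 0.83 for let-7d to 2.51 for let-7i. On the centred log ratio they ranged from -0.91 for let-7d to 0.78 for let-7i. The family sum was 1.36-fold higher on day 175, but it was lower once miR-191 was removed from the total (log2 change -0.24), once miR-10b was removed as well (-0.27), and on the centred log ratio (-0.44).

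From day 175 to day 250, 3 of the 5, let-7f, let-7a and let-7i, were over 2-fold lower, against 48.3% of 58 miRNAs. Their log2 changes of -1.85, -1.62 and -2.01 compare with a median of -0.86 over all miRNAs. Let-7b was over 2-fold higher, as were 8.62% of the miRNAs, and it had the fifth largest increase of the 58, with let-7d eighth. Under the 4 other scalings all 5 members kept these directions, although the log2 change of the family sum, -1.54, ranged from -1.49 to -0.46. On the centred log ratio the changes of let-7f, let-7a and let-7i were below 2-fold, at -0.77, -0.54 and -0.93. Those of let-7b and let-7d were 2.26 and 1.87.

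Over the whole span from day 35 to day 250, let-7f was 4.60-fold, let-7a 3.27-fold and let-7i 3.27-fold lower, with 35.2% of 54 miRNAs lower by over 2-fold. Let-7b was over 2-fold higher, as were 40.7% of the miRNAs, and let-7d was 1.55-fold higher. The log2 change of let-7d, 0.63, was 0.13 with miR-191 removed, 0.07 with miR-10b removed as well, and 1.90 as percent of all analysed reads. The direction of each of the 5, and of the family sum, was the same under the 4 other scalings, although as percent of all analysed reads the log2 change of the sum was only -0.42, against -1.69. On that scaling the log2 changes of let-7f, let-7a and let-7i were -0.93, -0.44 and -0.44, all below 2-fold, and that of let-7b was 3.66.

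**Figure D3:**
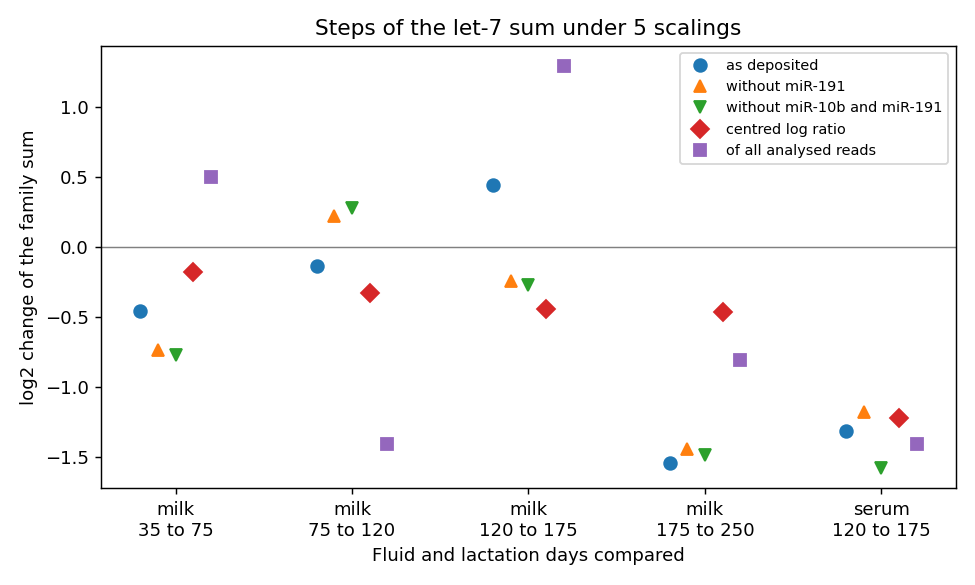
Change of the sum of 5 let-7 members between consecutive lactation days (log2, vertical axis) for 4 steps in milk and 1 in serum, each point being 1 way of scaling the libraries. Only the steps from day 175 to day 250 in milk and from day 120 to day 175 in serum lie below 0 under all 5 scalings.

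A ratio of members within 1 library does not depend on the rest of the library, and so it is free of the scaling. It compares numbers of reads, and how well each sequence was captured was not measured. Let-7f made up 56.8% of the family sum on day 35, 65.4% on day 75, 59.9% on day 120, 49.6% on day 175 and 40.0% on day 250. Let-7a stayed between 24.2% and 29.9% of it in all 5 milk libraries. Together they held 85.5%, 89.7%, 89.4%, 79.5% and 68.4% of the milk family in order of day.

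The rarer members held more of the family on day 250. Let-7b held 0.834% of the family sum on day 35, 1.45% on day 75, 1.82% on day 120, 2.13% on day 175 and 14.1% on day 250. Let-7d held between 0.977% and 1.35% on the first 4 days and 4.92% on day 250. In reads, let-7f outnumbered let-7b by 68.0-fold on day 35 and by 2.83-fold on day 250. With let-7g counted in the family, its share was 4.89% on day 250, against at most 1.79% before.

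In serum the order of the members was another one. Let-7i took 1.45% of serum miRNA reads on day 120 and 0.454% on day 175, ahead of let-7f with 0.238% and 0.168%. Let-7a took 0.142% and 0.076%, and let-7b took 0.052% and 0.055%. Let-7g, outside the 5, took 0.045% and 0.039%. Let-7d took 0.003% and 0.004%, so close to the rounding step that its day 175 to day 120 ratio of 1.33 may lie anywhere from no difference up to 1.80.

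Let-7i held 76.9% of the family sum in serum on day 120 and 60.0% on day 175, and between 7.47% and 17.4% in the milk libraries. Let-7f and let-7a together held 20.2% and 32.2% of it in serum. Expressed as a ratio, there were 6.09 let-7i reads for each let-7f read in serum on day 120 and 2.70 on day 175, against 0.117 to 0.351 in milk. Of the 10 ratios between 2 members, 4 did not overlap between the 5 milk and the 2 serum libraries, 3 of them ratios to let-7i (of let-7f, let-7a and let-7d) and the other that of let-7b to let-7d. This is no larger a share than among all 780 ratios between the 40 miRNAs with at least 0.001% in every library, of which 55.0% did not overlap. Let-7f to let-7a was not among the 4, with 1.41 to 2.70 let-7f reads per let-7a read in milk and 1.68 and 2.21 in serum.

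**Figure D4:**
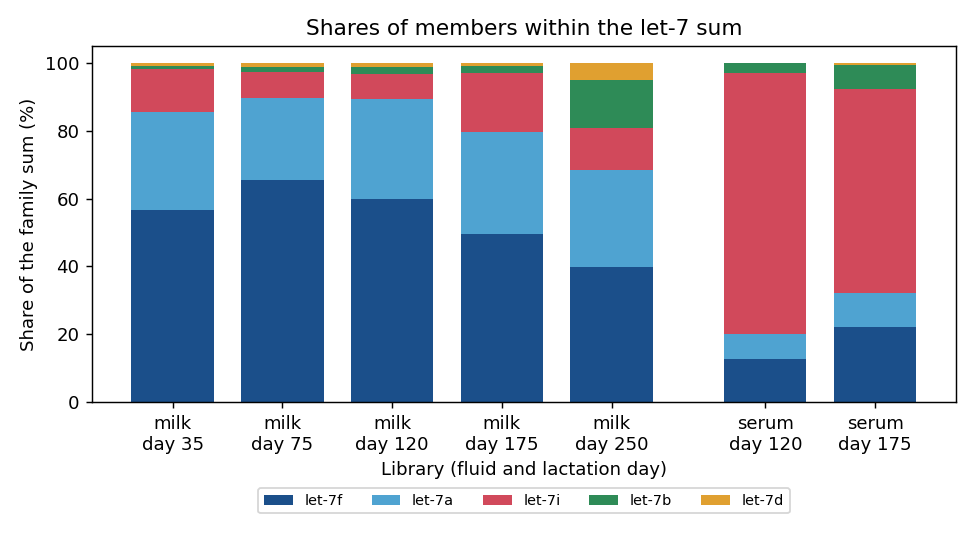
Share of each of 5 let-7 members in the sum of the 5 (vertical axis, percent) in 5 milk and 2 serum libraries, each bar being 1 library. Let-7f with let-7a fills between 68.4% and 89.7% of the milk bars, let-7i fills 76.9% and 60.0% of the serum bars, and let-7b reaches 14.1% in milk on day 250.

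From day 120 to day 175 the family sum in serum was 2.49-fold lower, with a log2 change of -1.32 that stayed between -1.58 and -1.17 under the other scalings. Most of this was let-7i, which was 3.19-fold lower, while let-7a was 1.87-fold and let-7f 1.42-fold lower. Of the 4 members that reached 0.005% in a serum library, let-7i alone was over 2-fold lower, against 22.8% of 57 miRNAs, and 0 were over 2-fold higher, against 14.0%. Let-7i had the seventh largest fall of the 57. With miR-10b and miR-191 removed, the log2 change of let-7a, -0.90 as deposited, was -1.17, a scaling that shifts all miRNAs of a library alike. The red cell marker miR-451 took 0.041% and 0.054% of these serum libraries and miR-126 took 0.034% and 0.050%, both higher on day 175, whereas the liver marker miR-122 took 0.096% and 0.009%, lower on day 175 as let-7i was. In milk the deposited let-7i share was high on days 35 and 175. MiR-451 was highest in milk on day 175, with 0.045%, and was not listed on day 35, and miR-122 was highest in milk on day 35, with 0.040%. The epithelial markers summed to 0.742%, 2.14%, 1.31%, 6.50% and 4.48% of milk miRNA reads in order of day. Of these, miR-141 took 0.344%, 1.74%, 0.684%, 4.96% and 4.17%, and miR-429 took 0.398%, 0.231%, 0.500%, 1.375% and 0.205%. The part of all these markers in the change of let-7i was not tested.

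Milk and serum were first compared within each day. At day 120 let-7f was 22.6-fold, let-7a 18.6-fold, let-7b 3.13-fold and let-7d 40.3-fold higher in milk, while let-7i was 2.16-fold lower. At day 175 the ratios were 36.0 for let-7f, 48.0 for let-7a, 4.73 for let-7b and 29.8 for let-7d, and let-7i was now 4.67-fold higher in milk. For let-7g, outside the 5, the ratios were 1.64 on day 120 and 5.33 on day 175. The ratios of let-7d are the least precise, since rounding leaves them between 34.4 and 48.6 on day 120 and between 26.3 and 34.1 on day 175. With 0.001 added to each percentage, 4 of the 5 were over 2-fold higher in milk on day 120, against 31.7% of 60 miRNAs. Over 2-fold lower on that day were 38.3%, let-7i among them. On day 175 all 5 were over 2-fold higher, against 57.4% of 61. Let-7d, with 0.003% and 0.004% in serum, reached the 0.005% required in either library through milk alone. It could thus enter these counts only as higher in milk. All 10 directions of the members held under the other scalings, but not the sizes. As percent of all analysed reads the day 120 log2 ratios of let-7f, let-7a and let-7d were lower, 2.91, 2.63 and 3.75, in place of 4.5, 4.22 and 5.33. That of let-7i, -1.11 as deposited, was -2.70 on this scaling and -0.37 with miR-191 removed, where it no longer passed 2-fold. With miR-10b and miR-191 removed, the day 175 log2 ratios were 3.64 for let-7f, 4.06 for let-7a and 3.37 for let-7d. Those of let-7i and let-7b were then 0.70 and 0.72, below 2-fold. How many of all miRNAs passed 2-fold under the other scalings was not computed, so members are not counted there. By the centred log ratio the day 175 log2 difference was only 0.15 for let-7i and 0.17 for let-7b, and as percent of all analysed reads that of let-7b on day 120 was only 0.07.

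**Figure D5:**
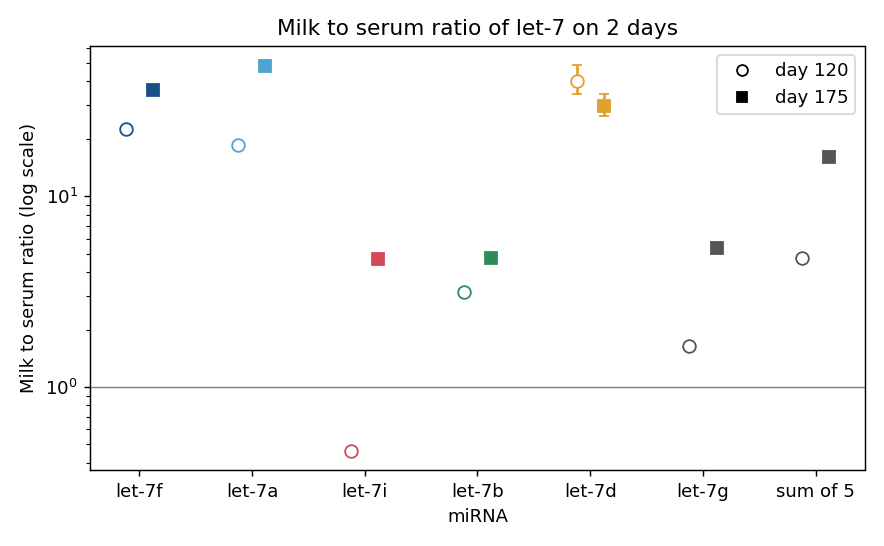
Ratio of the percent of miRNA reads in milk to that in serum (log scale) on day 120 (open circles) and day 175 (filled squares) for 5 let-7 members, let-7g and the sum of the 5, each point comparing 1 milk with 1 serum library and bars giving the range that rounding allows. Let-7f, let-7a and let-7d lie between 18.6 and 48.0, and let-7i lies at 0.462 on day 120 and at 4.67 on day 175.

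For a test across miRNAs, limma was run on milk against serum of days 120 and 175, with log2(percent + 0.001) as the measure, over 75 miRNAs with at least 0.001% in 2 of the 4 libraries. The 2 days stood in for replicates, and the fluids also differed in extraction kit. Of the 5 members 3 passed an adjusted p of 0.05, all higher in milk, against 14.7% of all miRNAs called higher in milk, and 0 were called lower, against 4.0% (18.7% of all miRNAs were called in either direction). The log2 difference was 4.83 for let-7f (standard error 0.75, limma adjusted p = 0.0069), 4.89 for let-7a (standard error 0.79, limma adjusted p = 0.0075) and 4.76 for let-7d (standard error 0.74, limma adjusted p = 0.0069). In each of these the values of both milk libraries lay above those of both serum libraries.

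For let-7b the difference was 1.93 on the log2 scale (limma adjusted p = 0.15, standard error 0.76), and for let-7i it was 0.55 (limma adjusted p = 0.80, standard error 1.01). Let-7g, outside the 5, did not pass either, with a difference of 1.55 (limma adjusted p = 0.28, standard error 0.85). Its difference was 0.27 with miR-10b and miR-191 removed and -0.04 on the centred log ratio. The difference of let-7i turned to -0.74 with miR-10b and miR-191 removed, to -1.03 on the centred log ratio, and to -0.28 without the milk or without the serum library of day 175. The median of the 5 members was 4.76 and that of all 75 miRNAs 0.08. With the day as a replicate block, the limma adjusted p rose to 0.079 for let-7f, 0.094 for let-7a and 0.079 for let-7d, and 0 miRNAs passed (20 at an unadjusted p under 0.05). Leaving out any 1 of the 4 libraries also left no call, the limma adjusted p of these 3 members then lying between 0.072 and 0.131, with log2 differences between 4.44 and 5.33. Their differences were smaller with miR-10b and miR-191 removed (3.53 for let-7f, 3.60 for let-7a and 3.71 for let-7d) and on the centred log ratio (3.24, 3.30 and 3.17), where all 3 still passed. On the centred log ratio, however, limma gave each of them the same standard error, 0.998. The spread of the single miRNA thus did not enter these calls. The difference of let-7d also depends on the pseudocount, since its serum values are so low, and was 3.27 with 0.01 added in place of 0.001.

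All 5 milk libraries were then set against both serum libraries. Let-7f, let-7a, let-7b and let-7d lay higher in each milk library than in both serum libraries, against 19.4% of 72 miRNAs, and let-7i overlapped. In an exact permutation test over the 21 splits, let-7f, let-7a and let-7d each had a two-sided p of 0.048, the smallest that these splits allow, let-7b 0.095 and let-7i 0.62. Outside the 5, let-7g also lay higher in each milk library than in both serum libraries, with an exact permutation p of 0.048. Adjusted over the 72 miRNAs the smallest p of this exact test was 0.19, so that 0 miRNAs passed (18 at an unadjusted p under 0.05). Under the 4 other scalings let-7f, let-7a and let-7d stayed above serum in each milk library. Let-7b did so only with miR-191 alone removed.

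The miRNAs most like the family in milk were sought by the Pearson correlation of log2 values over the 5 milk libraries, among 34 miRNAs outside the family. They were miR-25 (0.90), miR-182 (0.87) and miR-301 (0.84), and the least alike was miR-375 (-0.78). Over all 7 libraries they were miR-184 (0.93), miR-148 (0.91) and miR-429 (0.90), miRNAs which, like the family sum, were lower in serum. These values describe 5 or 7 single libraries whose percentages share a denominator, and carry no p.

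Within the family let-7f and let-7a correlated at 0.93 over the milk libraries and at 0.99 over all 7, where each was the closest of 39 miRNAs to the other. In milk let-7f correlated at -0.93 with let-7b and at -0.92 with let-7d, whereas over all 7 libraries, with serum low in each, these pairs correlated at 0.56 and 0.91. Let-7b was closest to miR-375 (0.96) and miR-30a (0.95) over the 7 libraries, and let-7d to miR-148 (0.97) and miR-141 (0.95). Let-7i was closest to miR-101 (0.88) and miR-19b (0.85) over the 7 libraries. It correlated with let-7a at 0.85 over the milk libraries and at 0.38 over all 7, and with let-7f at 0.65 and 0.35.

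Some let-7 genes lie in 1 transcript with miR-100, miR-99 or miR-125 genes in mammals, and miR-98, itself counted with the family, lies beside a copy of let-7f. Of these 6 cluster partners 2 were tested, miR-100 and miR-125b, and miR-99a, miR-99b, miR-125a and miR-98 were not listed. MiR-100 took 0.172%, 0.101%, 0.319%, 0.292% and 0.066% of milk miRNA reads in order of day, and 0.433% and 0.470% of serum miRNA reads. MiR-125b was listed at 0 on day 35 and took at most 0.016% in milk, against 0.025% and 0.055% in serum. Both partners were thus lower in each milk library than in both serum libraries, as were 13.9% of the 72 miRNAs, whereas let-7a and let-7f were higher. With miR-191 removed, miR-100 was below both serum libraries in only 4 of the 5 milk libraries, and under the other 3 scalings, as for miR-125b under all 4, it was below in all 5. In limma neither passed, with a log2 difference of -0.56 for miR-100 (limma adjusted p = 0.67) and of -3.06 for miR-125b (limma adjusted p = 0.060). Over the milk libraries alone miR-100 correlated with let-7a at 0.76.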

How the data were processed

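Small RNA of skim milk (5 libraries) and serum (2 libraries), extracted with a different kit for each fluid, was sequenced. The authors removed adaptors and low quality reads, counted known miRNAs with miRanalyzer, and deposited each as percent of the annotated miRNA reads in its sample, rounded to 3 decimals. Absent entries were taken as 0. These values do not carry depth. The study states read totals and aligned shares, of which only the aligned shares were used, for 1 alternative scaling, and no counting interval was computed. Days are those of the labels, and for the libraries labelled 75 and 120 the study's tables give slightly earlier days. The series record names a second day 175 library. It was not analysed here. Whether the values of that day include it is unknown.

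The members and lists were chosen with earlier results of these data known. Named are the 5 members, let-7g, the miRNAs most like them by correlation (the 3 nearest to the family sum, the 2 nearest to each member), miR-191, miR-10b, and fixed marker and cluster partner lists. Limma 3.58.1 in R 4.3.3 was fitted on log2(percent + 0.001) with Benjamini-Hochberg adjustment over 75 miRNAs. The exact permutation test used the absolute difference of mean log2 values. Python 3.11.15, numpy 2.4.6, pandas 2.3.3 and matplotlib 3.10.9 were used. The fit was tested on simulated data (50 runs of 75 miRNAs, 20 of them changed 16-fold, log2 standard deviation 0.7) and called 99.4% of those 20, with 0.58 false calls on average. The simulated libraries were independent, with the same spread for every miRNA, no effect of day and no shared denominator. These rates check the code only and do not carry over to the real libraries. Milk and serum of a day came in part from the same females, so a fit with day as replicate block was added. Over 75 miRNAs the day 175 minus day 120 values of the fluids correlated at -0.12. Nothing says that the libraries of a fluid are independent replicates, so p-values measure only the spread between these libraries. The alternatives were other denominators, the centred log ratio (over 40 miRNAs that reached 0.001% in every library), percent of all analysed reads (with the aligned shares the study gives), other pseudocounts and filters, other sets of members, and libraries left out.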

Additional observations from a re-analysis of the deposited data

Results flagged for a closer look

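Among the 5 milk libraries, 1 stood apart from the other 4 in 4 of 12 sets of values, by the size of its gap relative to the whole range (Dixon's ratio, above its critical value). For the percent of let-7d the ratio was 0.820, with day 250 high. This held in the deposited scaling only: with day 250 still highest, the ratio was 0.183 once miR-191 was removed from the total, 0.112 once miR-10b was removed as well, 0.674 as percent of all analysed reads and 0.595 on the centred log ratio, all below the critical value. For the share of the family sum it was 0.906 for let-7d and 0.902 for let-7b, with day 250 high in both, and 0.739 for let-7a, with day 75 low. Chance flags about 1 in 20 such sets, the shares of 1 family depend on each other, and the milk libraries are different days of lactation.

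From day 120 to day 175 the deposited percentages of several let-7 miRNAs moved in opposite directions in milk and serum, each judged on 1 library per fluid and day, and the difference was not tested. The log2 change in milk minus that in serum was 0.67 for let-7f, 1.37 for let-7a, 3.33 for let-7i, 1.70 for let-7g and 1.76 for the family sum, all higher in milk and lower in serum at day 175. Of the members and the family sum, only let-7i kept opposite directions under the 4 other scalings, its difference lying between 2.36 and 4.28. Let-7f, let-7a and the family sum fell in milk too once miR-191 was removed from the total, alone or with miR-10b, and on the centred log ratio. The difference of the family sum then lay between 0.78 and 1.31, and that of let-7f was -0.15 with miR-191 removed and -0.30 on the centred log ratio. For let-7d it was -0.44, with serum values of 0.003% and 0.004% next to the rounding step, and it was 0.50 as percent of all analysed reads. Of 50 miRNAs with at least 0.005% in a library of each fluid, 40.0% were higher in milk and lower in serum at day 175, and 18.0% the reverse.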

How the results depend on the processing

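The 4 other scalings shift all log2 values of a library by 1 constant, so ratios within the family do not depend on them. Of 48 log2 changes of the members and the family sum, 32 kept their sign under all 4. The family sum moved by over 1.5-fold as follows. As percent of all analysed reads its log2 change was 0.50 from day 35 to day 75, -1.41 from day 75 to day 120, 1.29 from day 120 to day 175, -0.81 from day 175 to day 250 and -0.42 from day 35 to day 250, and its log2 milk to serum ratio was 0.67 on day 120 and 3.37 on day 175. Once miR-191 was removed from the total, the change from day 120 to day 175 was -0.24 and the day 120 ratio 3.0. Once miR-10b was removed as well, these were -0.27 and 1.18, and the day 175 ratio 2.48. On the centred log ratio the changes from day 120 to day 175 and from day 175 to day 250 were -0.44 and -0.46, and the ratios 1.15 and 1.94. Without let-7f in the sum the ratios were 1.13 and 3.38. Adding let-7g moved no value of the sum by over 1.5-fold.

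In limma 14 miRNAs were called, 11 higher and 3 lower in milk. The split was 10 and 7 without both miRNAs, 10 and 6 with all 5 milk libraries, 13 and 5 with a filter of 0.01%, 7 and 5 with milk of days 35, 75 and 250 (chosen after seeing the data), and 11 and 22, or 33 in all, on the centred log ratio. In that last fit all let-7 miRNAs had the same standard error, 0.998, so its calls do not compare directly with those of the other fits. The median log2 difference of all miRNAs moved from 0.08 to -0.79 without miR-10b and miR-191 and to -1.51 on the centred log ratio. With the day as a replicate block 0 passed, and 0 with each library left out (between 13 and 23 at an unadjusted p under 0.05), where 1 residual degree of freedom remains and the lone library of a fluid is assumed to vary like the other fluid. The same 3 members, let-7f, let-7a and let-7d, were called in each other alternative, joined by let-7b with a pseudocount of 0.01 (limma adjusted p = 0.043, over its alternatives 0.043 to 0.80). With the filter of 0.01%, let-7d entered through its milk libraries alone, so its call there carries no weight. The 3 members under p = 0.05 in the exact permutation test became 0 with any milk library left out, since the smallest p is then 0.067. The precision of let-7d in serum is limited by rounding.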

Other observations

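Among all 780 ratios between the 40 miRNAs with at least 0.001% in every library, that of let-7f to let-7a varied least over the 7 libraries. Its log2 standard deviation was 0.31, followed by 0.43 for miR-10b to miR-10a. This ranking was chosen after the values were seen. Over the milk libraries alone the ratio of let-7f to let-7a spanned 1.92-fold and had the fifth smallest span of the 780. Let-7b to miR-375 had the fourth smallest standard deviation, 0.56. The counting may have shared reads between near-identical miRNAs, and how far this sets the ratios of let-7f to let-7a and of miR-10b to miR-10a was not tested.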
